A study of Mus musculus with 5 samples.

Results

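The roof plate is the strip of cells at the dorsal midline of the neural tube, the embryonic tissue that gives rise to the brain and spinal cord. Its 10 genes examined here were Gdf7, Bmp6, Wnt1, Wnt3a, Rspo1, Lmx1a, Lmx1b, Msx1, Msx2 and Olig3, found by symbol among 23284 gene symbols with read counts. Gdf7 was picked for its low level in EpoR-null neural tubes, and the other 9 are known genes of the same dorsal domain. Gdf7 was thus selected on its measured difference between EpoR-null and control samples. RNA-seq was performed on 5 neural tube samples of mouse embryos from matings of EpoR heterozygotes, in which EpoR, the gene of the erythropoietin receptor, was deleted on both alleles (EpoR -/-, EpoR-null, n = 2), on one allele (EpoR +/-, n = 1) or on neither (EpoR +/+, n = 2). The heterozygous and wild type samples together were the 3 littermate controls. The labels give all embryos the age E8.5, which differs from the age in the study's text, and neither the labels nor the methods give the strain, the sex or the number of embryos per library. The deletion was present in every cell of the embryo, so the receptor was missing from blood and vessels as well as from the neural tube. Nothing in the labels says that the samples of a genotype came from separate litters, so the p-values measure the spread between these samples only.

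In a developing neural tube, BMP proteins from the overlying ectoderm induce the roof plate, which then secretes BMP and Wnt proteins itself and so patterns the dorsal progenitors beside it. GDF7 is a BMP family ligand made by the roof plate and is needed for a class of dorsal interneurons. LMX1A and LMX1B are LIM homeodomain factors that specify roof plate cells, MSX1 and MSX2 are homeodomain factors induced by BMP, WNT1 and WNT3A drive proliferation of dorsal progenitors, and OLIG3 is a bHLH factor of the dorsal progenitor domains.

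Of the 10 genes, Gdf7 was the one with a large and uniform difference, at 4.79 times less in the EpoR-null samples than in the controls. It was chosen for that difference. Lmx1b and Bmp6 were also below every control in both EpoR-null samples, as were 22.1% of all genes tested, and neither was called. Wnt1, Wnt3a and Lmx1a were below every control in one EpoR-null sample and above every control in the other, so that their group means hardly differed. Replicate 1 was the low one, an order found for 10.9% of all genes tested. Msx2 had the reverse order, as did 9.73% of genes tested. Every one of the 10 genes had reads in all 5 samples, from 10 reads of Gdf7 in EpoR-null replicate 1 to 2065 reads of Olig3 in wild type replicate 2, and together they took from 2475 to 5920 reads per sample.

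The promoter windows of 3 of these genes are shown, as examples of 3 patterns in the data, which do not cover Rspo1, Msx1 and Olig3: Gdf7 (low in both EpoR-null samples), Lmx1a (low in EpoR-null replicate 1, high in replicate 2) and Msx2 (high in replicate 1, low in replicate 2). Each window runs 5′ to 3′ from 250 bases before to 50 bases after the RefSeq gene start. All 10 genes matched a window in the RefSeq table. Capitals mark TAAT, the core that homeodomain proteins such as LMX and MSX factors recognize, on either strand, and the longer motifs searched.
Gdf7, GRCm38.p6 chr12:8301905-8302204, minus strand: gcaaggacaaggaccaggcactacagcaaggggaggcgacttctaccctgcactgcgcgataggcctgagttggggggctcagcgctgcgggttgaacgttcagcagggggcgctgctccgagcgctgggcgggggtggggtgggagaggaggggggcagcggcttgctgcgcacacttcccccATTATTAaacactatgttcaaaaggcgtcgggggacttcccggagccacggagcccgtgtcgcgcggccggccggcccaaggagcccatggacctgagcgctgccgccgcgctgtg
Lmx1a, GRCm38.p6 chr1:167689308-167689607, plus strand: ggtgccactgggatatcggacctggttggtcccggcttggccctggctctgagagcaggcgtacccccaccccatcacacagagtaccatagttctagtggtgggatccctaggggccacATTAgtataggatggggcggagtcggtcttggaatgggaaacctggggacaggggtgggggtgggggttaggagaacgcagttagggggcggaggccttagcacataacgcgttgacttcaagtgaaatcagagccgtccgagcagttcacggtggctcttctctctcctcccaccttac
Msx2, GRCm38.p6 chr13:53472731-53473030, minus strand: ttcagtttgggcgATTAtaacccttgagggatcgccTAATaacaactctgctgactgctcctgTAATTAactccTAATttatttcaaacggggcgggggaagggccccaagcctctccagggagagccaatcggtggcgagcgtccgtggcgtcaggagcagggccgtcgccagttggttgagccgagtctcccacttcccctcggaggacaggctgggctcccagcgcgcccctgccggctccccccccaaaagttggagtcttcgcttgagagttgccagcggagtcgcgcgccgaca
TAAT was present in the windows of 5 of the 10 genes (Gdf7, Lmx1a, Msx1, Msx2 and Olig3), against 58.0% of 32851 windows of all genes. The window of Gdf7 holds 2 overlapping copies, which start 66 and 63 bases before the gene start. TAATTA, a LIM homeodomain motif that contains the core, was in the window of Msx2 alone (5.29% of all windows). GGCGCC, a motif of BMP-activated SMAD proteins, was in those of Wnt3a and Rspo1 (11.9% of all windows). None of the 10 windows held TTCNNNGAA, the motif of the STAT factors that act below the erythropoietin receptor (8.3% of all windows), CTTTGA of TCF/LEF (16.0%), TAATTG of MSX (8.0%) or CATATG of OLIG factors (3.91%). These letters describe the windows and no binding was measured. The windows were rich in G and C, from 46.0% in Olig3 to 86.3% in Wnt3a, and 9 of the 10 were above the median of all windows (52.7%).

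Reads counted on genes came to between 19316126 and 41169218 per sample. At these depths 3 reads, the limit that a count of 0 allows, correspond to between 0.0729 and 0.155 CPM (read counts scaled to library size). These limits are without TMM factors, while the CPM levels of genes given below are with them. EpoR itself had 57 and 68 reads in the wild type samples (2.35 and 1.62 CPM), 11 in the library labelled heterozygote (0.475 CPM), and 7 and 19 in EpoR-null replicates 1 and 2 (0.353 and 0.668 CPM). Both EpoR-null samples were thus below both wild type samples, while the heterozygote lay between the EpoR-null samples and not between the genotypes. The 95% exact Poisson interval of the heterozygote, which covers counting error only, was 0.237 to 0.85 CPM. On the log2 scale EpoR-null minus control was -1.51 for EpoR (standard error 0.76, FDR 0.280 in edgeR's exact test). Which part of the gene is deleted is not given in the sources used here, so reads left in EpoR-null samples are no check of the label.

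The samples also differed in markers of tissues other than the neural tube. The 7 neural progenitor markers (Sox1, Sox2, Sox3, Pax6, Nes, Hes5 and Rfx4) were each above 1 CPM in every sample, and their summed level was 1503 to 1735 CPM in controls and 1326 to 1545 CPM in EpoR-null samples. Markers of primitive red cells, such as the embryonic globin genes Hbb-y and Hba-x, summed to 1091 and 603 CPM in the wild type samples, 44.1 in the heterozygote, and 1692 and 965 in EpoR-null replicates 1 and 2, with Hba-a1 at 0 throughout. Endothelial markers summed to 11.8 CPM in the heterozygote against 125 to 274 CPM in the other 4 samples. Somite markers summed to 82.7 CPM in EpoR-null replicate 1 and 30.5 CPM in replicate 2, against 9.54 to 43.3 CPM in controls. Surface ectoderm markers, a layer that also expresses Msx and Bmp genes, summed to 17.1 and 35.3 CPM in replicates 1 and 2 of the EpoR-null group and to 8.55 to 28.0 CPM in controls. Neural crest markers summed to 234 and 151 CPM against 76.7 to 198 CPM, and those of notochord and floor plate to 59.7 and 90.5 CPM against 63.1 to 87.7 CPM. In none of these 7 lists did the exact test of edgeR call a gene, and none had an unadjusted p under 0.05 in that test. Over all genes tested those shares were 4.77% and 19.8%. The quasi-likelihood F-test without and with the replicate number as a block and DESeq2 called none either, though each gave an unadjusted p under 0.05 to 1 neural progenitor marker, and the blocked fit to 1 neural crest marker. Standard errors were wide for some markers, such as Hbb-y (log2 fold change 1.45, standard error 1.09) and Cdh5 (0.15, standard error 1.19). The lack of calls is therefore not read as equal tissue content. By summed level, the heterozygote thus held the least of the blood, vessel, somite, neural crest (76.7 CPM) and surface ectoderm (8.55 CPM) markers. EpoR-null replicate 1 had the highest sums of the red cell, somite and neural crest markers. Only 1 of 7 somite and 3 of 8 surface ectoderm markers were above 1 CPM in every sample. Not every marker followed the sums. Tbx6 was highest in the heterozygote (0.907 CPM), and Grhl2 (0.432 CPM) and Grhl3 (0.648 CPM) were there above both wild type samples. Their part in the results that follow was not tested.

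**Figure D1:**
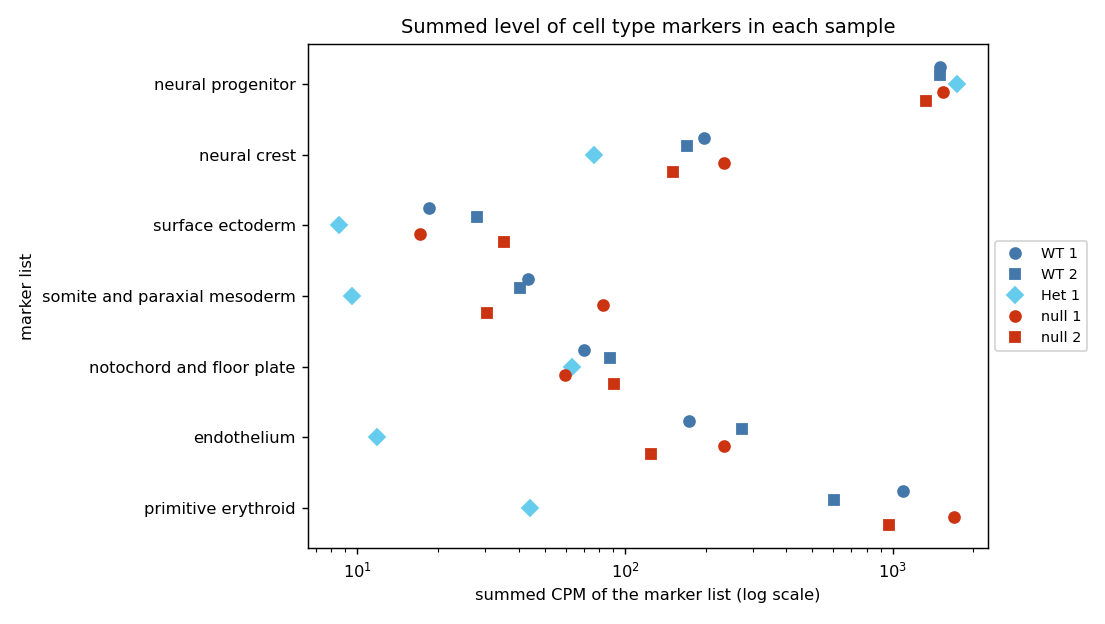
Summed level of each marker list on a log axis of CPM, with 1 point per sample (circles and squares are replicates 1 and 2, the diamond is the heterozygote). The heterozygote (light blue) lies far to the left for endothelium (11.8 CPM) and primitive red cells (44.1 CPM), while all 5 samples lie close together for neural progenitors.

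The controls show which of the 10 genes a wild type or heterozygous neural tube expressed most. Levels between genes were compared as reads per kilobase of the longest transcript, scaled for depth as CPM (RPKM). Olig3 was the highest, at 25.5 ± 3.20 RPKM (SD, n = 3 controls), followed by Wnt1 (10.7 ± 0.803), Wnt3a (7.38 ± 0.885) and Msx1 (6.14 ± 0.887). Lmx1a (3.78 ± 0.411), Msx2 (3.14 ± 0.741) and Rspo1 (2.98 ± 0.375) formed a middle group. Gdf7 (1.48 ± 0.408), Bmp6 (1.14 ± 0.238) and Lmx1b (0.260 ± 0.0891) were the lowest, and the highest of the 10 was 98.0 times the lowest. Of neighbours in this order, the control ranges of Wnt3a and Msx1, of Lmx1a and Msx2, of Msx2 and Rspo1, and of Gdf7 and Bmp6 overlapped, so their order was not larger than the spread between samples. Of the paired family members, Lmx1a was thus well above Lmx1b, and Msx1 above Msx2. With the median transcript length in place of the longest, Bmp6 had 6.12, Rspo1 4.8 and Lmx1b 0.879 RPKM. The places of Bmp6 and Rspo1, and the ratio of 98.0 between highest and lowest, thus depend on which transcript is taken.

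EpoR-null neural tubes were compared with the 3 controls to ask how expression differs when the receptor is missing. The comparison used TMM normalization and the exact test of edgeR over 12703 genes, with genes called at p < 0.001 and FDR < 0.05. On simulated counts this test made more false calls than its FDR allows. All 10 genes were among those tested, but Gdf7 and Lmx1b passed the filter on low counts (CPM above 1 in at least 2 samples) through control samples alone. Of the 10, 1 was called (Gdf7), against 4.77% of all genes tested with 3.84% called lower and 0.929% higher. At FDR < 0.05 alone it was likewise 1 of the 10, against 5.49% of genes lower and 1.81% higher. Since Gdf7 was chosen for its difference in this very contrast, nothing is read from that count and no p-value is given for Gdf7. Of the other 9, the exact test, the quasi-likelihood F-test of edgeR without and with the block, and DESeq2 called none. The exact test and both quasi-likelihood fits gave 1 of the 9 an unadjusted p under 0.05 (Lmx1b in the exact test, lower), and DESeq2 gave 0. Over all genes tested that share was 19.8% in the exact test, so 1 of 9 was no more than the background. Nothing is read from the p-value of Lmx1b, which passed the filter through control samples alone. The log2 fold change was below 0 for 8 of the 10 and above 0 for 2. The median was -0.24 (-0.23 without Gdf7), beside 0.06 over all genes tested. These signs include those of Gdf7 and Lmx1b, and several others turned when an EpoR-null sample was left out. Nothing about the group is read from them.

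**Figure D2:**
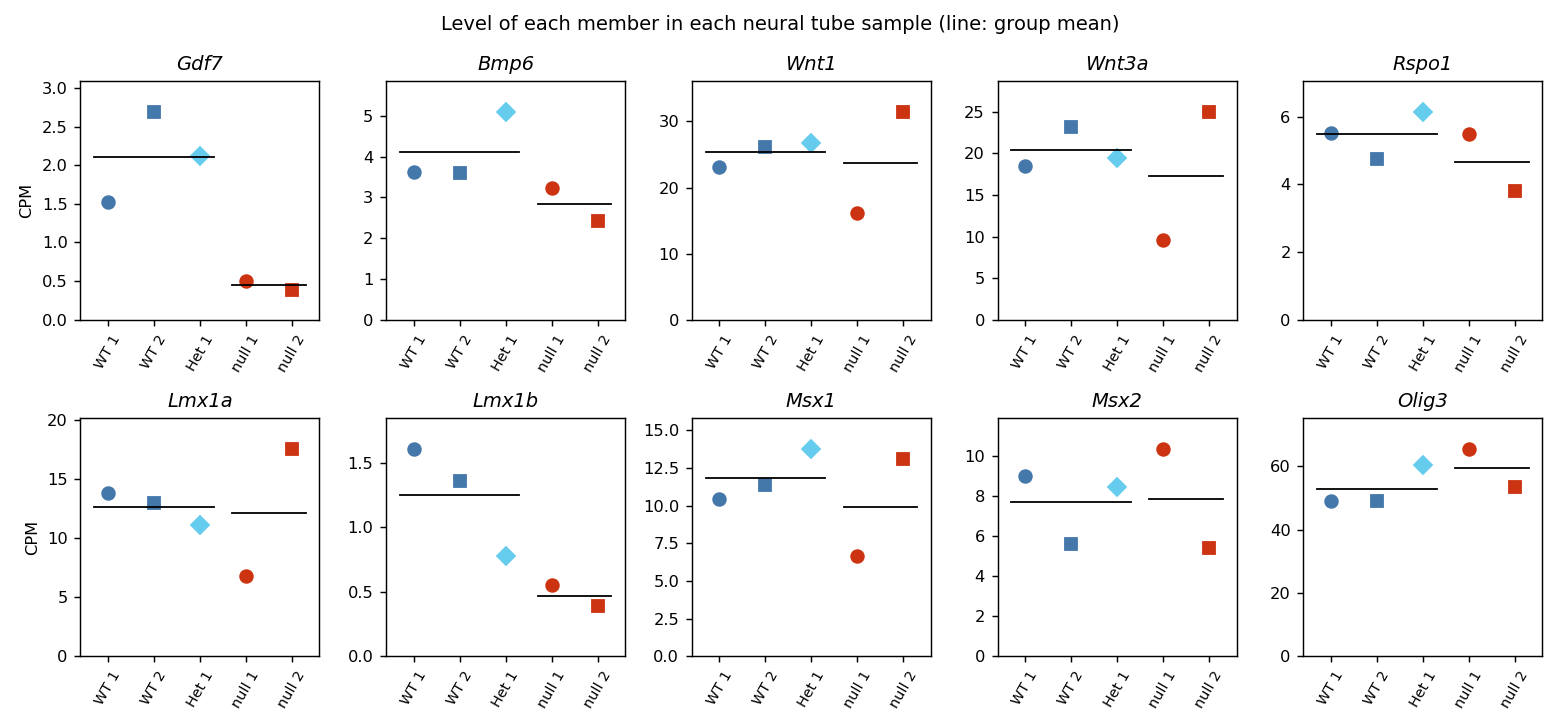
CPM of each gene in the 5 samples, on axes that start at 0, with wild type (WT) in dark blue, the heterozygote (Het) in light blue and EpoR-null in red; lines are group means. Gdf7 lies between 1.53 and 2.69 CPM in controls and at 0.505 and 0.387 CPM in EpoR-null samples, and the EpoR-null samples of Wnt1, Wnt3a and Lmx1a lie on opposite sides of the controls.

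Among the secreted BMP ligands, Gdf7 had 37 and 113 reads in the wild type samples (1.53 and 2.69 CPM) and 49 in the heterozygote (2.12 CPM). The EpoR-null samples had 10 and 11 reads (0.505 and 0.387 CPM). Both EpoR-null samples lay well under the lowest control, with log2 ratios to the control mean of -2.06 and -2.45. The control mean was 2.11 ± 0.581 CPM (SD, n = 3), and the EpoR-null mean was 0.446 ± 0.0832 CPM (SD, n = 2). The difference fitted by edgeR was -2.26 on the log2 scale, with a standard error of 0.52. Counting error was wide at this depth, with 95% exact Poisson intervals that reached up to 0.928 CPM in the EpoR-null samples and down to 1.08 CPM in the controls. The heterozygote lay between the wild type samples. No annotated exon of another gene overlaps Gdf7.

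Bmp6, a second BMP ligand of the roof plate, had 3.63, 3.59 and 5.10 CPM in wild type replicates 1 and 2 and the heterozygote, and 3.23 and 2.43 CPM in replicates 1 and 2 of the EpoR-null group. The EpoR-null samples were below every control, though replicate 1 only just. The difference of -0.54 on the log2 scale (standard error 0.39, FDR 0.489 in edgeR's exact test) did not pass, and its 95% interval ran from -1.31 to 0.23. Bmp6 shares exon sequence with Txndc5 on the other strand, and the strand setting of the read counting is not given in the sources used here, so some of these reads may belong to Txndc5.

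Wnt1, the ligand of the dorsal midline and the midbrain, had 23.2, 26.2 and 26.7 CPM in the controls (wild type replicates 1 and 2, then the heterozygote) and 16.1 and 31.4 CPM in replicates 1 and 2 of the EpoR-null group. Wnt3a, which acts with Wnt1 on dorsal progenitors, had 18.5, 23.2 and 19.5 CPM in the controls and 9.64 and 25.0 CPM in replicates 1 and 2 of the EpoR-null group. For both Wnt genes, one EpoR-null sample was the lowest and the other the highest of all 5. The log2 fold changes were -0.09 for Wnt1 (standard error 0.33, FDR 0.928) and -0.23 for Wnt3a (standard error 0.43, FDR 0.832) in the exact test of edgeR. The 95% intervals ran from -0.73 to 0.55 and from -1.09 to 0.62. Changes within these limits were not excluded by these samples. Rspo1, which encodes an R-spondin that amplifies Wnt signals, had 5.53, 4.76 and 6.13 CPM in the controls and 5.50 and 3.80 CPM in replicates 1 and 2 of the EpoR-null group. One EpoR-null sample lay among the controls and the other below them (log2 fold change -0.24, standard error 0.36; exact test, FDR 0.783).

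Lmx1a had 13.8, 13.0 and 11.1 CPM in the controls and 6.76 and 17.6 CPM in replicates 1 and 2 of the EpoR-null group, a 2.60-fold difference between the EpoR-null samples, against 1.24-fold between the highest and lowest control. The difference between groups was -0.05 on the log2 scale for Lmx1a (standard error 0.45, FDR 0.975 in edgeR's exact test). Lmx1b had 39, 57 and 18 reads in the controls (1.61, 1.36 and 0.777 CPM) and 11 reads in each EpoR-null sample (0.555 and 0.387 CPM). The EpoR-null samples were the lowest of the 5, but the heterozygote was nearer to them than to the wild type samples. The counting interval of the heterozygote (0.461 to 1.23 CPM) overlapped that of EpoR-null replicate 1 (0.277 to 0.993 CPM). It also overlapped those of wild type replicate 1 (1.14 to 2.20 CPM) and replicate 2 (1.03 to 1.76 CPM). The log2 fold change of Lmx1b was -1.42 (standard error 0.56), and it was not called (exact test of edgeR, FDR 0.115). Lmx1b passed the filter through control samples alone, so nothing is read from its test. The related factors stood apart in their level in the controls. The difference between their fold changes was not tested, and nothing is read from the contrast of their patterns.

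Msx1 had 10.4, 11.4 and 13.8 CPM in the controls and 6.66 and 13.1 CPM in replicates 1 and 2 of the EpoR-null group. Replicate 1 was below every control and replicate 2 was among them (log2 fold change -0.26, standard error 0.38; exact test of edgeR, FDR 0.772). Msx2 had 9.0, 5.62 and 8.46 CPM in the controls and 10.3 and 5.38 CPM in replicates 1 and 2 of the EpoR-null group. Its EpoR-null samples were the highest and the lowest of the 5, in the opposite order to Lmx1a and the Wnt genes, and the wild type samples differed in the same order (log2 fold change 0.03, standard error 0.43; FDR 0.980). Olig3 had 48.9, 49.1 and 60.5 CPM in the controls and 65.5 and 53.4 CPM in replicates 1 and 2 of the EpoR-null group. With the most reads of the 10 genes, Olig3 also had the narrowest estimate, a log2 fold change of 0.17 with a standard error of 0.19 (exact test, FDR 0.668) and a 95% interval from -0.20 to 0.54.

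Gdf7, Lmx1b and Bmp6 lay under the lowest control in both EpoR-null samples, but Gdf7 was chosen for its low level and Lmx1b passed the filter through controls alone, which leaves 1 gene (Bmp6). None of the 10 lay over the highest control in both. Of all genes tested, 22.1% were below in both and 21.2% above in both, and nothing about the group is read from these counts. In 3 genes (Wnt1, Wnt3a and Lmx1a) replicate 1 was below and replicate 2 above every control, which was so for 10.9% of genes tested. The reverse order was seen for Msx2 and for 9.73% of genes tested. The tallies of genes on opposite sides of the controls were made after the values were seen. The EpoR-null samples differed 1.97-fold for Msx1, 1.95-fold for Wnt1 and 2.59-fold for Wnt3a, all higher in replicate 2. Leaving out EpoR-null replicate 1 turned the log2 fold changes of Wnt1, Wnt3a, Lmx1a and Msx1 from below to above 0 (0.31, 0.29, 0.47 and 0.15), and that of Msx2 from above to below 0 (-0.51). Lmx1a also turned without wild type replicate 1 (0.01), and Msx2 turned below 0 without wild type replicate 2 (-0.15). Leaving out EpoR-null replicate 2 gave Wnt1, Wnt3a, Lmx1a and Msx1 values of -0.65, -1.09, -0.91 and -0.83 and turned Rspo1 to 0.0095. Wnt3a was then called (exact test, FDR 0.00539) where Gdf7 was not (log2 fold change -2.07), in a fit that called 7.76% of genes and rests on a single EpoR-null sample assumed to vary like the controls. Over the alternatives, the FDR of Wnt3a ranged from 0.00539 to 0.999. With only 2 EpoR-null samples, the level of the dorsal Wnt genes and of Lmx1a in the absence of EpoR was thus not settled. The low sample, EpoR-null replicate 1, was also the one with the highest summed levels of somite, neural crest and red cell markers. In bulk tissue, fewer cells of the dorsal midline and less RNA per cell cannot be told apart.

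**Figure D3:**
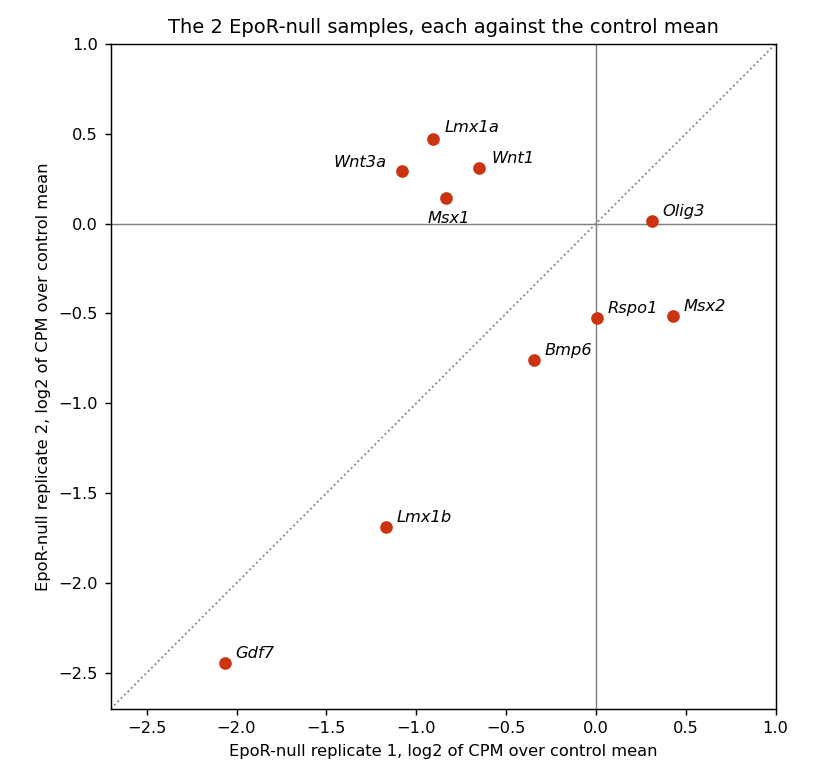
Each gene's log2 ratio of CPM to the control mean, in EpoR-null replicate 1 (horizontal) and replicate 2 (vertical); the dotted line marks equal ratios. Gdf7 (-2.06 and -2.45) and Lmx1b (-1.17 and -1.69) lie low in both, whereas Lmx1a, Wnt1, Wnt3a and Msx1 lie left of 0 and above it.

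**Figure D4:**
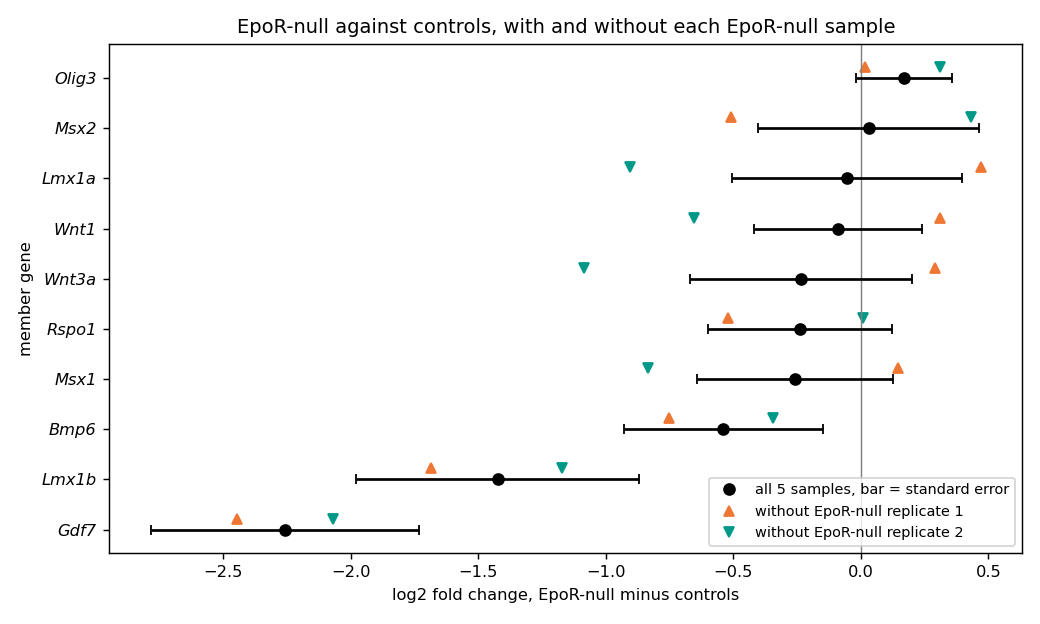
Log2 fold change of EpoR-null against controls for each gene, with all 5 samples (black, bar = standard error) and without EpoR-null replicate 1 (orange) or replicate 2 (green). Gdf7 stays between -2.45 and -2.07, whereas Wnt1, Wnt3a, Lmx1a, Msx1 and Msx2 change sign without replicate 1 and Rspo1 without replicate 2.

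The heterozygote was compared with the wild type samples to ask whether the controls that were pooled differ in these genes, a contrast that played no part in choosing them. None of the 10 genes was called by the exact test of edgeR, which called 1.33% of all genes tested, or by the quasi-likelihood F-test, and none had an unadjusted p under 0.05 in either. The lone library labelled heterozygote is assumed to vary like the other groups. It lay between the wild type samples for 3 genes (Gdf7, Wnt3a and Msx2), above both for 5 and below both for 2 (Lmx1a and Lmx1b). The log2 differences from wild type were -0.01 for Gdf7 (standard error 0.66), -0.92 for Lmx1b (standard error 0.65) and 0.30 for Olig3 (standard error 0.26), so for Gdf7 a 2-fold difference lay within 2 standard errors and was not detectable with 1 sample.

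Across the tested genes with a known transcript length (12577), the log2 fold change of EpoR-null against controls correlated negatively with length (Spearman's rho -0.63, across genes, which share libraries and are not replicates). Long genes were lower and short genes higher, in EpoR-null replicate 2 (rho -0.67) more than in replicate 1 (rho -0.37). The 10 genes had transcripts of 1423 (Gdf7) to 4790 bases (Lmx1b), and 2 of them were above the median of 3492 bases. In a likelihood-ratio test of edgeR with offsets for length and GC content, the log2 fold changes of Msx2 (-0.12) and Olig3 (-0.09) turned below 0. The part of length in the values of the 10 genes was not tested further.

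The neighbouring genes of these pathways were counted in lists of known members. The counts stand beside the shares over all genes tested, of which the exact test called 3.84% lower and 0.929% higher and gave 19.8% an unadjusted p under 0.05. Of 16 tested dorsal progenitor and interneuron factors, the exact test of edgeR called none in either direction (median log2 fold change 0.05). In that test 1 had an unadjusted p under 0.05, and it was lower. The quasi-likelihood F-test without and with the block and DESeq2 called none either. The most expressed of them were Zic1, a zinc finger factor of the dorsal neural tube, with control and EpoR-null means of 135 ± 5.45 (SD, n = 3) and 116 ± 32.5 CPM (SD, n = 2), and Pax3, a dorsal paired box factor, with 76.9 ± 10.6 and 71.2 ± 15.8 CPM. Their log2 fold changes were -0.22 (FDR 0.603) and -0.11 (FDR 0.832).

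Of 4 tested BMP family ligands besides Gdf7 and Bmp6 none was called, with a median of 0.16 on the log2 scale. None had an unadjusted p under 0.05 in the exact test or the unblocked quasi-likelihood F-test. In DESeq2 and in the blocked fit 1 had such a p, lower in both, and neither called one. Gdf11, which patterns the body axis, had 18.9 ± 2.03 and 12.2 ± 4.32 CPM (log2 fold change -0.63, FDR 0.258), and Bmp7 had 4.49 ± 1.10 and 5.03 ± 0.0963 CPM (0.16, FDR 0.868). Of 21 tested BMP receptors, SMADs, antagonists and Id targets, 1 was called lower and 0 higher, with a median of 0.01, while DESeq2 called 2. An unadjusted p under 0.05 was found for 5 of the 21 in the exact test, all lower. It was Acvr2b, an activin and BMP type II receptor, which fell from 38.2 ± 2.14 to 17.4 ± 1.30 CPM (log2 fold change -1.13, standard error 0.18; exact test of edgeR, FDR 7.84e-07). Acvr2b was called in 13 of 15 alternatives, with FDR from 3.21e-11 to 0.158, and not by the quasi-likelihood F-test without the block (FDR 0.0590) or with the block and offsets for length and GC content.

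Of 8 tested Wnt and R-spondin genes besides Wnt1, Wnt3a and Rspo1, none was called (median 0.18). None had an unadjusted p under 0.05 in the exact test or either quasi-likelihood fit, and DESeq2 gave 1 such p (higher) and no call. The highest were Wnt5a (27.5 ± 0.652 and 29.3 ± 9.16 CPM, FDR 0.886) and Wnt7a (24.8 ± 3.67 and 23.3 ± 6.27 CPM, FDR 0.906). Of 22 tested Wnt receptors, effectors and targets, 1 was called lower and 0 higher (median -0.08), and 5 had an unadjusted p under 0.05 in the exact test, all lower. It was Lrp6, a Wnt co-receptor, which fell from 118 ± 9.07 to 73.6 ± 12.4 CPM (log2 fold change -0.68, standard error 0.17; exact test, FDR 0.00318). Lrp6 has a transcript of 9368 bases, and with offsets for length and GC content its log2 fold change was -0.15 (likelihood-ratio test, FDR 0.999). It also lost the call without wild type replicate 1 and without the heterozygote, and was called in 10 of 15 alternatives (FDR 6.92e-08 to 0.999).

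Of 13 tested LIM partners and relatives of the LMX, MSX and OLIG genes none was called (median 0.34), by any of these tests. An unadjusted p under 0.05 was found for 1 of them in the exact test and DESeq2, 2 in the unblocked and 3 in the blocked quasi-likelihood fit. All of these were higher in the EpoR-null samples. Ldb1, the cofactor that LIM homeodomain proteins bind, had means of 194 ± 10.3 and 202 ± 24.9 CPM in control and EpoR-null samples (log2 fold change 0.06, FDR 0.885). Olig2, a bHLH factor of ventral progenitors, had means of 82.7 ± 5.71 and 65.0 ± 35.7 CPM (-0.35, FDR 0.643). For comparison with the opposite pole of the tube, 1 of 11 tested ventral factors was called lower and 0 higher (median -0.05), and 2 had an unadjusted p under 0.05 in the exact test, both lower. It was Ptch1, the receptor and target of Hedgehog signalling, which fell from 161 ± 16.4 to 51.8 ± 5.21 CPM (log2 fold change -1.64, standard error 0.16; exact test of edgeR, FDR 5.95e-18). Ptch1 was called in 13 of 15 alternatives (FDR 1.85e-24 to 0.170), and not by the quasi-likelihood F-test without the block (FDR 0.0590) or with the block and offsets for length and GC content. With offsets for length and GC content its log2 fold change was -1.03, from a transcript of 10383 bases.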

How the data were processed

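PolyA RNA of 5 mouse neural tube samples was sequenced. Per the labels' processing notes, the authors used Trimmomatic 0.32, TopHat2 2.1.0 and HTSeq 0.6.1 with the mm9 genome, while the study's methods name another Tophat version and a human build. The deposited values are raw read counts per gene symbol, 1 table per sample, and HTSeq leaves out reads that align to several places or to several genes. Its summary lines were not used as genes. Reads on annotated genes gave between 19316126 and 41169218 counts per sample, and a further 8.11% to 11.0% of uniquely aligned reads fell outside annotated genes.

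The tools were edgeR 4.0.16 and DESeq2 1.42.0, run in R 4.3.3. A gene was tested if 2 or more samples exceeded a CPM of 1, for this filter without TMM factors, which held for 12703 of 23284. TMM normalization and exactTest were used as in the study's methods, here with tagwise dispersions and Benjamini-Hochberg adjustment over all genes tested (FDR) and genes called at p < 0.001 and FDR < 0.05. Wild type and heterozygous samples formed the controls, as in the study. Standard errors come from the negative binomial information, and 95% intervals of log2 fold changes are the normal ones from them. The heterozygote was tested against wild type with dispersions estimated over 3 groups. Transcript length and GC content came from GENCODE M21 (GRCm38), by symbol or RefSeq synonym, for 99.0% of tested genes. Promoter windows are from RefSeq on GRCm38.p6. No coordinates were taken from the counts files, which hold none.

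The alternatives were the quasi-likelihood F-test without and with a replicate block (the replicate number), DESeq2, the likelihood-ratio test without and with offsets for loess trends (span 0.5) on length and GC content, RLE factors, scaling by library size, all genes unfiltered, a filter of 10 reads per sample, FDR alone, a fold above 1.5 and each sample left out. The block together with offsets was added after seeing the data. On simulated counts the exact test recovered the size of the changes without marked bias and called most genes that were changed. At FDR < 0.05 its share of false calls was above that level, as were those of DESeq2 and the likelihood-ratio test, and nearer to it in the quasi-likelihood fits. The exact test also called genes between heterozygote and wild type where none had been changed, so its counts of called genes may be too high. The 10 genes, the gene lists and the tests were chosen with earlier results of these data known. Named genes were the 10, EpoR, and from each list up to 5 called genes with the largest change or, with none called, the 2 most expressed in controls. Counts of each pair of samples differed by more than sampling noise (lowest chi-square per degree of freedom 12.6). One list of markers is not reported here.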

Additional observations from a re-analysis of the deposited data

How the results depend on the processing

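Gdf7 was below the controls in every alternative, with log2 fold changes from -2.45 to -2.03 with 1 sample left out and from -2.62 to -2.25 otherwise. It was chosen for its difference in these same samples, so the refits are no independent test of that difference. Of the 10 genes, 1 was called with the settings used in the report, and 0 in each of 3 quasi-likelihood fits: with no block, with the replicate block, and with block plus length and GC offsets (added after seeing the data). The number of called genes among all tested was 606, and it was 0, 291 and 0 in those 3 fits (3052, 3729 and 1307 genes had an unadjusted p under 0.05), 1041 with DESeq2, 172 with offsets in the likelihood-ratio test and 928 at FDR < 0.05 alone. With 1 sample left out it ranged from 115 (without wild type replicate 1) to 2296 (without EpoR-null replicate 1), with 294 without wild type replicate 2, 253 without the heterozygote and 980 without EpoR-null replicate 2. With the replicate number as a block, log2 fold changes of the 10 genes kept their sign. The numbers are not said to mark a shared litter or day. Across genes, the difference between replicates 1 and 2 in wild type correlated with that in EpoR-null (Pearson's r 0.43), from 2 pairs only.

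With 1 sample left out, the log2 fold change ranged from -0.65 to 0.31 for Wnt1, -1.09 to 0.29 for Wnt3a, -0.52 to 0.0095 for Rspo1, -0.91 to 0.47 for Lmx1a, -0.83 to 0.15 for Msx1, -0.51 to 0.43 for Msx2 and 0.02 to 0.31 for Olig3. It kept its sign for Gdf7, Bmp6 (-0.75 to -0.34) and Lmx1b (-1.69 to -1.17, in the 3 fits where it passed the filter). Msx2 turned from 0.03 to -0.117 with offsets, -0.0316 with the block and offsets and -0.00090 without a filter, and Olig3 from 0.17 to -0.0858 with offsets and -0.0407 with the block and offsets. The cause was not tested.

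Between the heterozygote and wild type, 169 genes were called in the exact test, 0 in the quasi-likelihood F-test (416 at an unadjusted p under 0.05), 97 with at least 10 reads in every sample and 50 to 102 with 1 wild type sample left out. With RLE factors Gdf7 turned from -0.0064 to 0.0015. With 1 wild type sample left out the difference ranged from -0.345 to 0.47 for Gdf7, -0.249 to 0.0714 for Wnt3a and -0.0884 to 0.592 for Msx2, each on the other side of 0 without wild type replicate 2. The median control level of the 10 genes moved from 3.46 to 5.46 RPKM with the median transcript length. Depth limits Gdf7, Lmx1b and EpoR most, with 7 to 19 reads in each EpoR-null sample.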
